A study of Mus musculus with 4 samples.

Results

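Chemokines are small secreted or membrane-tethered proteins that guide leukocytes, and dermal fibroblasts are a known source of several of them. They are named CC, CXC or CX3C after the spacing of their first cysteines, act through G protein-coupled receptors, and are induced mainly by NF-kappaB and interferon signalling. The values below are those of 10 chemokine genes, taken by name from the 23732 gene symbols that were counted, in immortalized murine dermal fibroblasts (imMDFs) with and without LAP2alpha, the lamin A/C-binding isoform of *Tmpo*. These genes were counted under 12 RefSeq transcript IDs. *Cxcl12* has 3 IDs, of which that with the most reads was used, and the other 9 genes have 1 ID each.

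Total RNA depleted of rRNA was sequenced in 4 libraries. The 2 *Tmpo* WT libraries (Lap2alpha +/+) and the 2 *Tmpo* KO libraries (Lap2alpha -/-) were taken at passage 34 (replicate 1) and passage 42 (replicate 2), from untreated cells in the same serum-containing medium. The study describes the knockout as a deletion of exon 4 of *Tmpo*. No source names more than 1 line per genotype, so genotype and line cannot be told apart. Apart from their passages, nothing marks the replicates as cultures of their own, so a p-value reflects the spread among 4 libraries alone, part of which may be technical.

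Reads given to transcripts numbered 12168433 to 19603812 per library, and the LAP2alpha transcript of *Tmpo* was counted 903 and 1324 times in the WT libraries and 6 times in each KO library. Of 10 fibroblast markers 9 had counts, and *Pdgfrb*, which has 2 IDs, was at 0 in every library. The summed fibroblast markers ran from 13145 to 14538 CPM (counts per fixed number of reads given to transcripts, after TMM normalization) in WT and from 11938 to 16147 in KO. Of the 9 tested, 6 had a log2 fold change below 0 and 3 above, with a median of −0.28. The proteoglycan gene *Dcn* was at −1.18 (standard error 0.398, unadjusted p = 0.0129 and adjusted p = 0.194 with edgeR) and did not pass, and 1 of the 9 was called. This was the surface protein gene *Thy1*, which rose by 1.80 on the log2 scale (standard error 0.268, adjusted p = 0.00469). Adjusted p-values come from the quasi-likelihood test of edgeR unless another is named. The 12 leukocyte markers summed to 12.2 and 10.9 CPM in WT and 18.6 and 14.0 CPM in KO at passages 34 and 42. Only 3 of them had enough reads to be tested and none was called. Of these 3, an unadjusted p under 0.05 was seen only for the receptor gene *Csf1r*, at 5.54 and 5.21 CPM in WT against 10.7 and 9.21 CPM in KO. The pan-leukocyte gene *Ptprc*, which has 3 IDs, had at most 4 counts in a library, and *Itgam* and *Cd68*, with 2 IDs each, had 0. Reads in exons that IDs share were set aside as ambiguous, so these low counts do not show that leukocytes were absent. Summed endothelial markers ran from 11.1 to 13.9 CPM, keratinocyte markers from 11.7 to 16.5 CPM and melanocyte markers from 35.7 to 50.1 CPM. None of these markers was called. The keratinocyte marker *Cdh1* was lower in KO, at −0.85 (unadjusted p = 0.0401 and adjusted p = 0.357 with edgeR's quasi-likelihood test). *Tyr*, at 26.3 to 40.1 CPM, made up most of the melanocyte sum. In bulk RNA, fewer cells that express a gene and less RNA per cell cannot be told apart, and the part of these other cell types in the results was not tested.

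The 10 chemokines changed in both directions in KO. *Cxcl1*, *Cxcl5*, *Cx3cl1* and *Ccl7* fell, *Cxcl10* and *Ccl5* rose, and *Cxcl12*, *Cxcl16*, *Ccl2* and *Ccl9* did not pass the test. All 10 had at least 1 CPM in both replicates of a genotype and were tested with 13855 transcripts in all, at a Benjamini-Hochberg adjusted p under 0.05. The 6 called chemokines compare with 2.75% of all tested transcripts called, 1.51% higher and 1.24% lower. In 7 genes both KO libraries lay below both WT libraries and in 3 both lay above, so that the groups overlapped in none, against 20% of all tested transcripts below, 21.9% above and 41.9% without overlap. The fitted change went beyond 2-fold in 6 of the 10, against 7.23% of all tested transcripts. Other tests called more transcripts, 3.92% with DESeq2, 4.42% with the exact test of edgeR, 4.6% with its likelihood ratio test and 7.88% with a block for the replicate number, which is the passage in both genotypes. These called 7, 8, 8 and 9 of the 10 genes. The median log2 fold change of the 10 genes was −0.94, and that of all tested transcripts was 0.02. As these genes were chosen with results of these libraries known, their counts are a description.

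**Figure D1:**
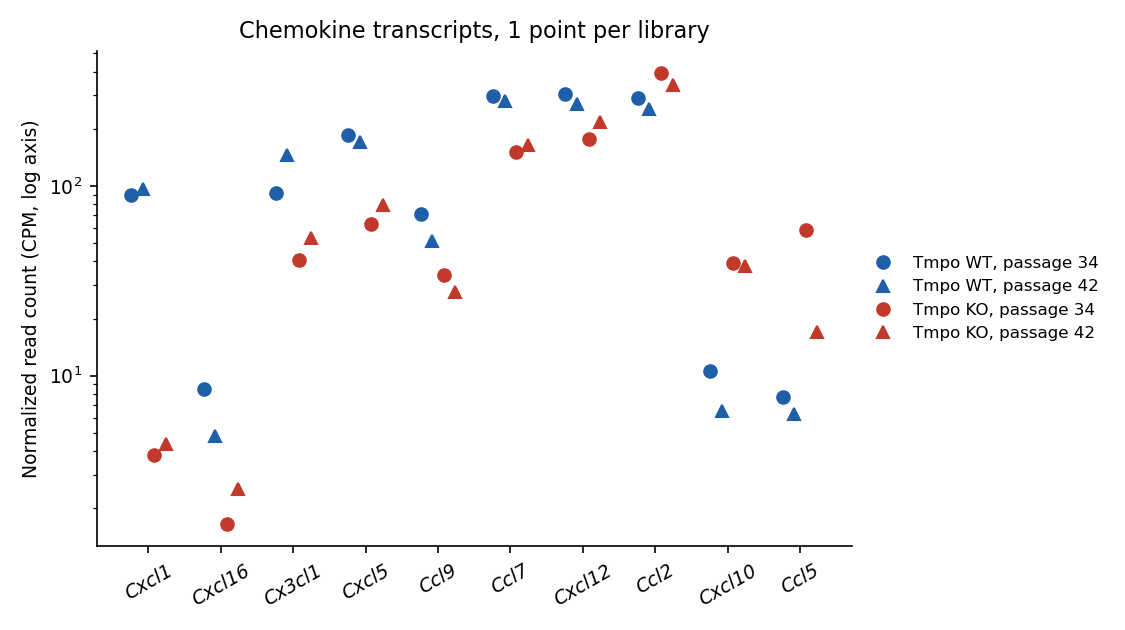
Normalized read counts (CPM, log axis) of the 10 chemokine transcripts, 1 point per library, with blue for *Tmpo* WT and red for *Tmpo* KO, and circles for passage 34 and triangles for 42. *Cxcl1* lies at 89.5 and 95.8 CPM in WT and at 3.80 and 4.35 CPM in KO, and in none of the 10 genes do the red and blue points overlap.

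The promoter windows of *Cxcl1*, *Cx3cl1* and *Cxcl10* are shown because these genes were called in KO, in opposite directions, and a RefSeq window was at hand for them, as for 5 of the 10 genes in all. Each runs from 250 bases before to 50 bases after the gene's start on build GRCm38.p6, 5′ to 3′ on the strand of the gene. Capitals mark matches to the NF-kappaB consensus, the interferon-stimulated response element (GAAA, any 2 bases, GAAA), the gamma-activated site TTCNNNGAA, the AP-1 site TGANTCA and the TATA box TATAAA, searched on both strands.
Cxcl1 (chr5:90890995-90891294, plus strand): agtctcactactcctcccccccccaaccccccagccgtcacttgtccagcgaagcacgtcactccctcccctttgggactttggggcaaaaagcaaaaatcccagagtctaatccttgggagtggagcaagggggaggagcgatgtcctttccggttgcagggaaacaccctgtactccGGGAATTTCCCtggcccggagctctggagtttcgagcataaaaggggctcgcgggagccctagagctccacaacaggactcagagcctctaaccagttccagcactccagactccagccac
Cx3cl1 (chr8:94771930-94772229, plus strand): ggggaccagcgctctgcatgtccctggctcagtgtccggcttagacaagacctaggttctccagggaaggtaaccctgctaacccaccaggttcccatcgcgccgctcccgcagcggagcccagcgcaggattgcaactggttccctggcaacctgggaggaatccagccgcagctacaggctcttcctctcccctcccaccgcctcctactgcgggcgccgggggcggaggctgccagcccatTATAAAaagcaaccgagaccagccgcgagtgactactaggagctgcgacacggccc
Cxcl10 (chr5:92348840-92349139, minus strand): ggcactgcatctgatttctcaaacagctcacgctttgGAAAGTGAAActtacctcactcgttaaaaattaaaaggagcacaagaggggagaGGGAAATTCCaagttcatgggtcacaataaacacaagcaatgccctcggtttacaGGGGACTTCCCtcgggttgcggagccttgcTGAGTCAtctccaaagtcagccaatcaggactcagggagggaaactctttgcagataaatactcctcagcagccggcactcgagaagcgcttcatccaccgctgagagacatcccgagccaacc

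The *Cxcl1* window held a single kind of match, a stretch of 11 bases from 71 to 61 bases before the start in which NF-kappaB matches of both strands overlap. The *Cxcl10* window held NF-kappaB stretches from 159 to 150 and from 104 to 94 bases before the start, an interferon-stimulated response element from 213 to 204 and an AP-1 site from 74 to 68. The *Cx3cl1* window held only a TATA box, from 6 to 1 bases before the start. Among the 32851 promoter windows of this length, 8.46% held the NF-kappaB consensus, 3.44% the interferon-stimulated response element, 8.30% the gamma-activated site, 7.81% the AP-1 site and 13.6% the TATA box. The *Cxcl12* window held none of these letters, and that of *Ccl9* held NF-kappaB, AP-1 and TATA matches. A match describes the sequence and is not a measured site.

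*Cxcl1* and *Cxcl5* encode neutrophil attractants that act through CXCR2, and both fell in KO. *Cxcl1* (NM_008176, chromosome 5 of mm9 from 91320267 to 91322141, plus strand) had 1066 and 1507 WT counts at passages 34 and 42, against 62 and 84 KO counts. Both KO libraries were low and close to each other, far from both WT libraries. The WT level was 92.6 ± 4.51 CPM (SD, n = 2) and the KO level 4.08 ± 0.384 CPM (SD, n = 2), a 22.7-fold decrease. The log2 fold change was −4.50 (standard error 0.253, adjusted p = 1.18e-05), and by its p the gene ranked 2 among all tested transcripts. With a library left out it ran from −4.65 to −4.42. At passage 34 the KO library had 0.0425 of the CPM of the WT library (95% interval 0.0324 to 0.0549, exact and for counting error only), and at passage 42 it had 0.0454 (0.0360 to 0.0565). These intervals overlap, and the difference between the passages was not tested.

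*Cxcl5* (NM_009141), which lies 129.6 kb from *Cxcl1* on the same strand, fell far less. It had 2220 and 2691 WT counts against 1028 and 1543 KO counts, which is 186 and 171 CPM against 63.1 and 79.8 CPM. The WT libraries were both high and the KO libraries both low, with no overlap. The log2 fold change was −1.32 (standard error 0.208, adjusted p = 0.00590), and the KO library had 0.339 of the WT level at passage 34 (0.314 to 0.365) and 0.467 at passage 42 (0.438 to 0.497). For each read of *Cxcl5* there were 0.480 and 0.560 reads of *Cxcl1* in the WT libraries and 0.0603 and 0.0544 in the KO libraries. This ratio is taken within a library and does not depend on the scaling between libraries. Between these genes lie *Ppbp*, *Pf4*, *Cxcl3* and *Cxcl15*, and *Cxcl2* lies just beyond *Cxcl1*. *Ppbp*, which encodes platelet basic protein, had 21 and 13 WT counts against 111 and 43 KO counts, a log2 difference of 1.82 that did not pass (standard error 0.586, adjusted p = 0.170) except with passage as a block (adjusted p = 0.00317), without KO replicate 2 or with no filter on low counts. *Cxcl2* and *Cxcl3*, the close relatives of *Cxcl1*, had at most 16 counts in a library and were not tested.

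*Cxcl10* encodes an interferon-induced attractant of T cells that acts through CXCR3, and it rose in KO. Its transcript NM_021274 had 126 and 103 WT counts at passages 34 and 42, against 637 and 734 KO counts. Both KO libraries were high and nearly level, at 39.1 and 38.0 CPM, and both WT libraries were low, at 10.6 and 6.55 CPM. The log2 fold change was 2.18 (standard error 0.297, adjusted p = 0.00274), a 4.52-fold increase, and the KO library had 3.70 times the WT level at passage 34 (3.05 to 4.51) and 5.80 times at passage 42 (4.71 to 7.20). These intervals do not overlap, but they cover counting error only. The gene lies on the minus strand of chromosome 5 from 92775664 to 92777915 and overlaps *Art3* of the other strand, whose transcript had 3 to 15 counts. Its neighbour *Cxcl9*, another CXCR3 ligand, named after its values were seen, had 78 and 174 WT counts against 135 and 170 KO counts, a log2 difference of −0.05 that did not pass (standard error 0.345, adjusted p = 0.981). The third gene of this cluster, *Cxcl11*, was counted under NR_038116, a non-coding RefSeq record, and had no more than 1 count in a library.

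*Ccl5* (RANTES), which attracts T cells and monocytes, rose as well and, relative to its mean, varied most of the 10 genes between the KO libraries. Its transcript NM_013653 had 92 and 99 WT counts against 958 and 329 KO counts. The WT libraries were both low, at 7.72 and 6.30 CPM, and the KO library of passage 34, at 58.8 CPM, was far above that of passage 42, at 17.0 CPM. The log2 fold change was 2.44 (standard error 0.483, adjusted p = 0.0205). The KO library had 7.61 times the WT level at passage 34 (6.14 to 9.53) and 2.70 times at passage 42 (2.15 to 3.42). Without KO replicate 1 the log2 fold change was 1.27 and without KO replicate 2 it was 3.03, both called. The call was lost with DESeq2 (adjusted p = 0.0885) and without WT replicate 1 or 2 (adjusted p = 0.0833 and 0.231). Over all alternatives the adjusted p ran from 2.95e-20 to 0.231.

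*Ccl2* (MCP-1) and *Ccl7* (MCP-3) encode ligands of the monocyte receptor CCR2, lie 8.258 kb apart on the plus strand of chromosome 11 and were the most abundant of the 10 per length. *Ccl2* (NM_011333, from 81849073 to 81850955) had 3463 and 4022 WT counts against 6399 and 6544 KO counts, which is 291 and 256 CPM against 393 and 339 CPM. Both KO libraries lay above both WT libraries, but the log2 difference of 0.42 did not pass (standard error 0.203, adjusted p = 0.433). *Ccl7* (NM_013654, from 81859214 to 81861027) had 3542 and 4431 WT counts against 2449 and 3188 KO counts. Its KO libraries, at 150 and 165 CPM, lay below its WT libraries, at 297 and 282 CPM. The log2 fold change was −0.88 (standard error 0.195, adjusted p = 0.0378), and the call was lost without either WT replicate or without KO replicate 1, with adjusted p = 0.254 and 0.213 without WT replicates 1 and 2 and 0.0680 without KO replicate 1. Over all alternatives the adjusted p ran from 4.29e-05 to 0.254. For each read of *Ccl7* there were 0.978 and 0.908 reads of *Ccl2* in the WT libraries and 2.61 and 2.05 in the KO libraries. This ratio was higher in both KO libraries than in both WT libraries, and the difference between the genes was not tested. The other 4 ligand genes of this cluster, *Ccl11*, *Ccl12*, *Ccl8* and *Ccl1*, had at most 22 counts in a library.

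*Ccl9*, a ligand of CCR1, lies 42.4 kb from *Ccl5* on the minus strand of chromosome 11, from 83386421 to 83392138, and its values lay in the other direction. Its transcript NM_011338 had 850 and 811 WT counts against 553 and 531 KO counts, which is 71.3 and 51.6 CPM against 33.9 and 27.5 CPM. The groups did not overlap, and the log2 difference of −1.0 did not pass (standard error 0.245, adjusted p = 0.0595). It was called with RLE size factors (adjusted p = 0.0491), DESeq2 (adjusted p = 0.0116) and passage as a block (adjusted p = 6.05e-04). The exact test (adjusted p = 0.0151), the likelihood ratio test (adjusted p = 0.0141) and no filter on low counts (adjusted p = 0.00663) called it too. It did not pass with library totals alone, 1 CPM in all 4 libraries or counts summed per symbol. With a library left out the log2 difference ran from −1.21 to −0.73. The reads of *Ccl5* for each read of *Ccl9* numbered 0.108 and 0.122 in WT and 1.73 and 0.620 in KO.

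**Figure D2:**
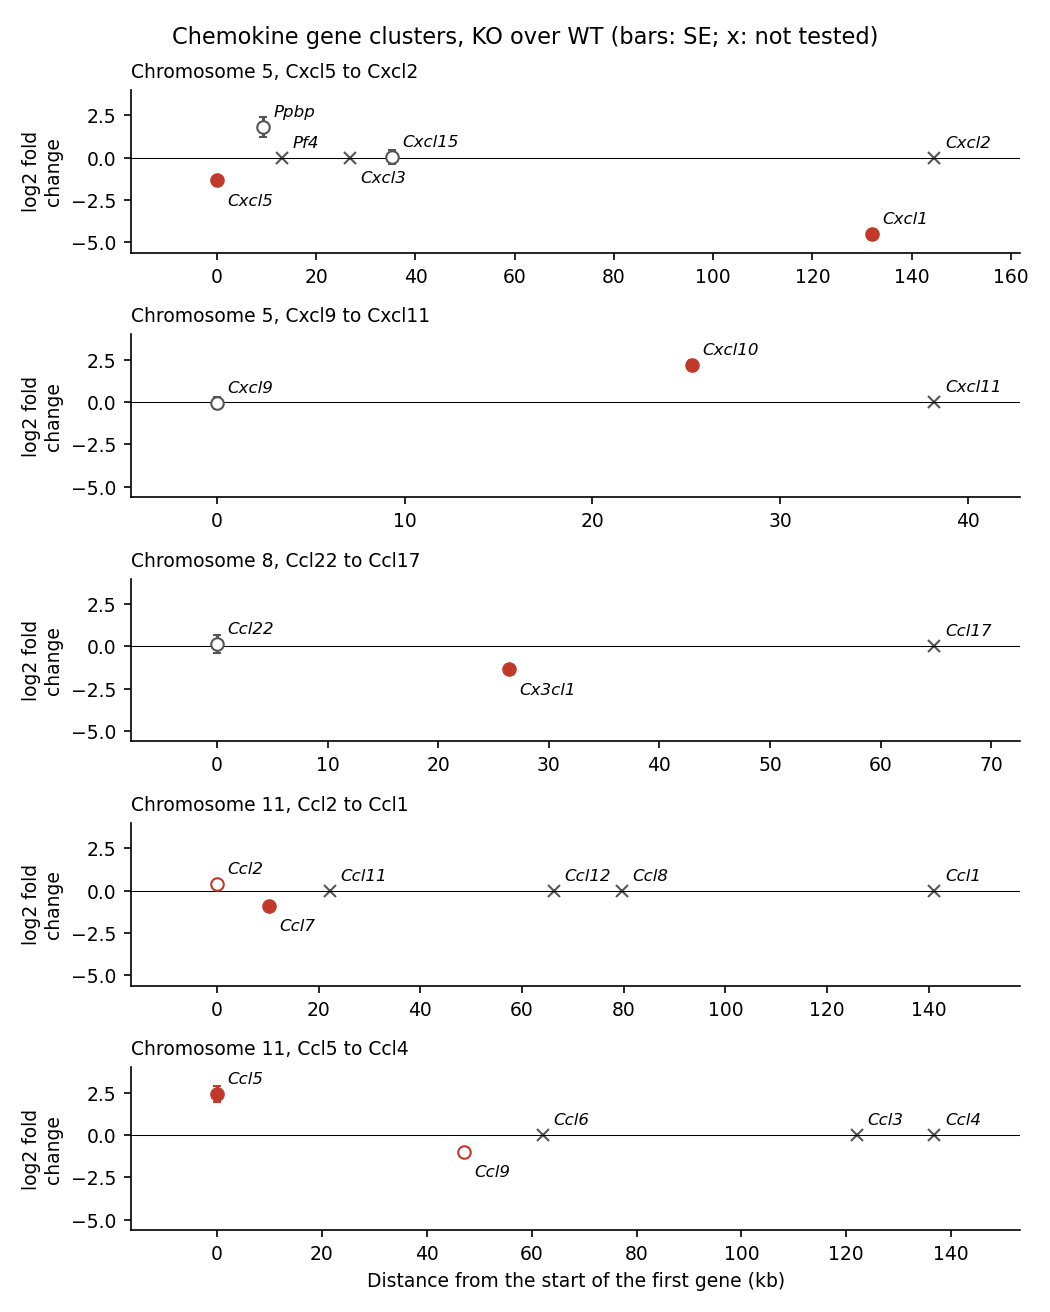
Log2 fold change (KO over WT) with its standard error against distance in kb from the start of the first gene, for the 5 groups of chemokine ligand genes within 200 kb of each other that hold any of the 10 genes. Red marks the 10 chemokines and grey other ligands, filled points are called, and crosses on the 0 line are genes not tested. *Ccl7* at −0.88 lies beside *Ccl2* at 0.42, and *Ccl9* at −1.0 lies in the cluster of *Ccl5* at 2.44.

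*Cx3cl1* (fractalkine) and *Cxcl16* encode the chemokines that are made as membrane proteins with a mucin-like stalk and released by the proteases ADAM10 and ADAM17. *Cx3cl1* (NM_009142, chromosome 8 from 97295909 to 97306323, plus strand) had 1100 and 2301 WT counts against 665 and 1028 KO counts. The WT level was 92.3 CPM at passage 34 and 146 CPM at passage 42, and both KO libraries were lower, at 40.8 and 53.2 CPM. The log2 fold change was −1.34 (standard error 0.258, adjusted p = 0.0182). It was −0.97 and no longer called without WT replicate 2 (adjusted p = 0.276), and over all alternatives the adjusted p ran from 5.62e-09 to 0.276. Its neighbours *Ccl22* and *Ccl17* had at most 38 counts in a library.

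*Cxcl16* (NM_023158, chromosome 11 from 70267485 to 70273486, minus strand) was the least abundant, with 101 and 76 WT counts against 27 and 49 KO counts. The WT libraries were higher, at 8.48 and 4.83 CPM against 1.66 and 2.54 CPM. The log2 difference of −1.65 did not pass (standard error 0.423, adjusted p = 0.0735), but was called with DESeq2 (adjusted p = 0.0187) and with edgeR's exact and likelihood ratio tests (adjusted p = 0.0100 and 0.00828). Passage as a block (adjusted p = 0.00136) and no filter on low counts (adjusted p = 0.00190) called it too. It did not pass with RLE size factors, library totals alone, 1 CPM in all 4 libraries or counts summed per symbol. With a library left out it ran from −2.03 to −1.18. Its adjusted p ran from 4.92e-04 to 0.681 over all alternatives. *Cxcl16* overlaps *Zmynd15* of the other strand, whose transcript had 22 to 70 counts, and since the sources used here do not state how strand was handled in counting, reads of the overlap cannot be assigned.

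*Cxcl12* (SDF-1), a constitutive fibroblast product that retains leukocytes and stem cells through CXCR4, lay lower in KO and did not pass the test of genotype alone. Its main ID NM_021704 (gene on chromosome 6 from 117118553 to 117131385, plus strand) had 3631 and 4263 WT counts against 2870 and 4184 KO counts. The WT libraries were at 305 and 271 CPM and the KO libraries at 176 and 217 CPM, lower without overlap. The log2 difference of −0.55 did not pass (standard error 0.205, adjusted p = 0.255), but with passage as a block it was −0.56 and was called (adjusted p = 0.0300). No other alternative called it. A second ID, NM_001012477, had 659 and 916 WT counts against 778 and 1134 KO counts, with a log2 difference of −0.09 (standard error 0.215, adjusted p = 0.932). The third, NM_013655, had no count in any library. Reads in exons that the IDs share were set aside as ambiguous, so neither value covers the whole gene.

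**Figure D3:**
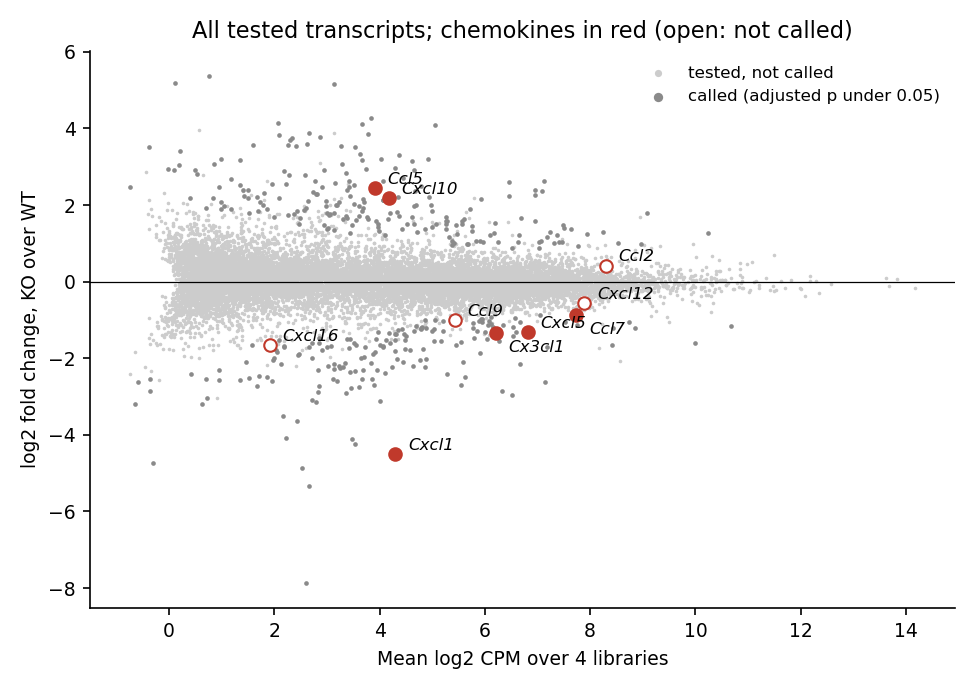
Log2 fold change (KO over WT) against mean log2 CPM over the 4 libraries for all 13855 tested transcripts, with the called ones in dark grey and the 10 chemokines in red (open where not called). *Cxcl1* lies at −4.50, *Ccl5* at 2.44 and *Cxcl10* at 2.18, and *Ccl2* and *Cxcl12* lie among the transcripts not called.

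Per kb of exon (CPM divided by the length of the union of the gene's annotated exons on mm9), the order of the chemokines differed between the genotypes. This length can exceed that of the counted RefSeq transcript, by more in some genes than in others, so the order of genes within a genotype is approximate. In WT it was *Ccl7* (361 ± 13.6, SD, n = 2), *Ccl2* (240 ± 21.6), *Cxcl5* (108 ± 6.48), *Cxcl1* (97.2 ± 4.73), *Cxcl12* (35.2 ± 2.91), *Cx3cl1* (32.2 ± 10.3), *Ccl9* (20.2 ± 4.59), *Ccl5* (7.30 ± 1.05), *Cxcl10* (5.63 ± 1.87) and *Cxcl16* (2.20 ± 0.853). The libraries of *Cxcl12* and *Cx3cl1* overlapped on this scale, as did those of *Ccl5* and *Cxcl10*, and the other neighbours in this order did not. In KO *Ccl2* came first (321 ± 33.5), *Ccl7* next (197 ± 13), and *Cxcl1* second to last (4.28 ± 0.403), above only *Cxcl16* (0.694 ± 0.206). From *Cxcl5* (43.2 ± 7.17) through *Ccl5* (39.5 ± 30.7) and *Cxcl10* (25.3 ± 0.508) to *Cxcl12* (24 ± 3.50), each gene's KO libraries overlapped with those of the next, and so did those of *Cx3cl1* (12.7 ± 2.37) and *Ccl9* (10.1 ± 1.5). The *Cxcl12* level is too low on this scale, since its shared exons were not counted.

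At passage 34 and at passage 42 the KO library differed from the WT library in the same direction in all 10 genes, and each ratio's counting interval lay away from 1. The log2 CPM difference went beyond 2-fold for 7 of them at passage 34 (10.9% of all tested transcripts) and for 5 at passage 42 (8.16%). Each of these comparisons rests on 1 library per genotype and has no test of its own. The ratio was farther from 1 at passage 34, with intervals that do not overlap, for *Cxcl5*, *Cxcl12*, *Cxcl16*, *Ccl5* and *Ccl7*, and *Cxcl16* had 0.195 of the WT level there (0.123 to 0.301) against 0.525 at passage 42 (0.359 to 0.761). It was farther from 1 at passage 42, again without overlap, for *Cx3cl1*, with 0.442 (0.401 to 0.487) against 0.364 (0.337 to 0.391), and for *Cxcl10*. The intervals overlapped for *Cxcl1*, *Ccl9* and *Ccl2*, and those of *Ccl2* were 1.35 (1.30 to 1.41) and 1.32 (1.27 to 1.38).

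**Figure D4:**
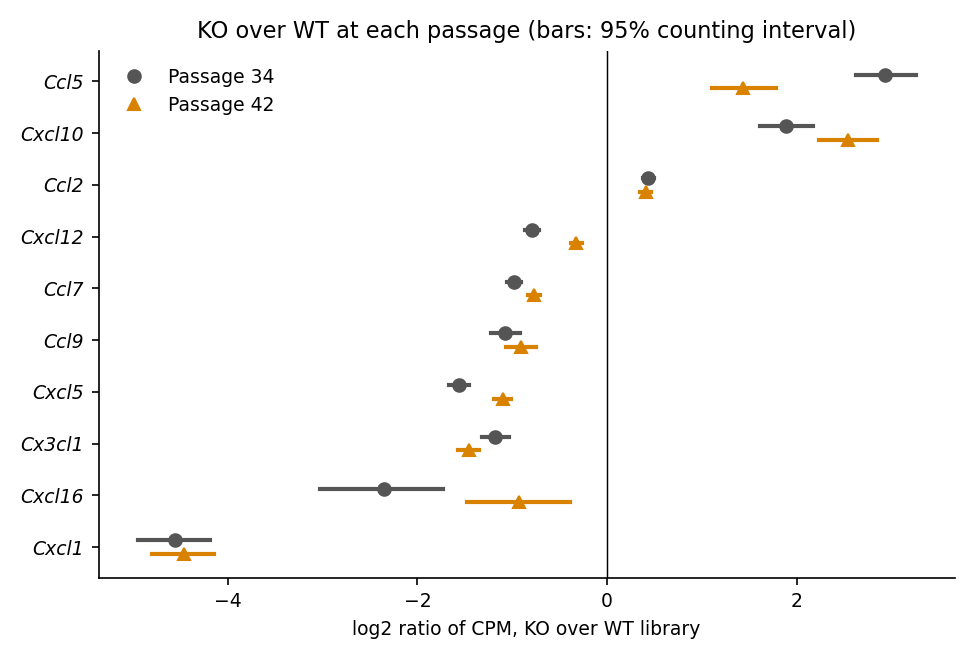
Log2 ratio of CPM in the KO over the WT library at passage 34 (grey circles) and passage 42 (orange triangles), with bars for the exact 95% interval of counting error. All points of a gene lie on the same side of 0, and *Ccl5* shows a ratio of 7.61 at passage 34 and 2.70 at passage 42.

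Between the passages 1 of the 10 chemokines passed the test. In a fit of passage with genotype as a block, *Ccl5* fell from passage 34 to passage 42 by 1.11 on the log2 scale (standard error 0.291, adjusted p = 0.0119), and the other 9 did not pass. Of all tested transcripts 2.31% were called, 1.77% higher and 0.541% lower at passage 42. The fall lay mostly in the KO pair, with a log2 CPM difference of −1.78, against −0.29 in the WT pair, and the difference between the pairs was not tested. The call was lost with DESeq2 (adjusted p = 0.190), when 1 CPM was required in all 4 libraries (adjusted p = 0.0873) and without the genotype block (adjusted p = 0.967), and over all alternatives the adjusted p ran from 0.00753 to 0.967. *Cx3cl1* had an unadjusted p under 0.05 and did not pass after adjustment, with a log2 difference of 0.52 (standard error 0.199, adjusted p = 0.172).

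Other genes of the chemokine system were followed in 8 lists. None of the 7 tested ligands outside the 10 genes was called with edgeR's quasi-likelihood test, its exact test or DESeq2, and 1 had an unadjusted p under 0.05. Of their 30 names, 6 had no count and 17 had counts too low to test, at most 26 in a library. *Ppbp* and *Ccl27a* had the smallest p, and *Ccl27a*, which has 4 IDs, had a log2 difference of −0.99 (standard error 0.522, adjusted p = 0.497). None of the 8 tested receptors of 23 was called under any setting, and 1 had an unadjusted p under 0.05. *Cxcr2*, the receptor for the products of *Cxcl1* and *Cxcl5*, had 548 and 1080 WT counts against 1302 and 1211 KO counts, with overlapping CPM and a log2 difference of 0.31 (standard error 0.246, adjusted p = 0.712). *Cxcr6*, the receptor for CXCL16, had 22 and 25 WT counts against 54 and 73 KO counts, a log2 difference of 1.05 that did not pass (standard error 0.396, adjusted p = 0.264).

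Of 16 genes of chemokine cleavage and presentation 14 were tested, of which 2 were lower and 12 did not pass. *Adam17*, which has 3 IDs, had at most 4 counts in a library and *Dpp4* at most 19, and neither was tested. The 2 lower genes both encode gelatinases that trim chemokines. *Mmp9* had 362 and 473 WT counts against 74 and 181 KO counts (log2 fold change −2.11, standard error 0.349, adjusted p = 0.00800), and *Mmp2* had 9421 and 7148 in WT and 2803 and 4325 in KO (−1.65, standard error 0.278, adjusted p = 0.00914). In both, the KO libraries lay below the WT libraries. The *Mmp2* call was lost without WT replicate 1 (−1.18, adjusted p = 0.0666), and that of *Mmp9* without WT replicate 2 (−2.12, adjusted p = 0.0706). Over all alternatives the adjusted p ran up to these values from 1.11e-14 for *Mmp2* and 2.73e-11 for *Mmp9*. With passage as a block the syndecan gene *Sdc1* was called too, at 0.54 (adjusted p = 0.0487). Of 15 other inflammatory products of fibroblasts 6 were tested, and 2 of these rose. The prostaglandin synthase gene *Ptgs2* had 718 and 838 WT counts against 5361 and 4192 KO counts (log2 fold change 2.27, standard error 0.243, adjusted p = 6.19e-04), and the stromelysin gene *Mmp3* had 12 and 10 against 145 and 199 (3.56, standard error 0.421, adjusted p = 0.00118).

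No gene of the 14 tested NF-kappaB subunits, kinases and inhibitors was called with the quasi-likelihood test or under any alternative, 0 had an unadjusted p under 0.05, and their median log2 fold change was 0.21. *Nfkb1* had a log2 difference of 0.36 (standard error 0.196, adjusted p = 0.515) and *Bcl3* of 0.59 (standard error 0.322, adjusted p = 0.517). None of 13 tested receptors for chemokine-inducing signals was called with edgeR's quasi-likelihood or exact test or DESeq2, and 3 had an unadjusted p under 0.05, with *Il17ra* at −0.61 (standard error 0.200, adjusted p = 0.177, or 0.0403 and called with passage as a block) and *Ifnar2* at 0.73 (standard error 0.258, adjusted p = 0.223). None of 7 tested genes of mRNA decay was called under any setting and 0 had an unadjusted p under 0.05, with *Khsrp* at −0.16 (standard error 0.230, adjusted p = 0.872) and *Rc3h1* at 0.12 (standard error 0.212, adjusted p = 0.907). Of 4 tested genes that carry interferon signals to chemokine genes *Stat2* rose, from 17.4 and 18.7 CPM in WT to 31.8 and 96.7 CPM in KO (log2 fold change 1.83, standard error 0.414, adjusted p = 0.0399). Its KO level was higher at passage 42, whereas that of *Cxcl10* was level and that of *Ccl5* lower. Each of these levels rests on 1 library per passage, and a relation between these genes was not tested. Unlike *Cxcl10*, *Stat2* was not called without WT replicate 1 or 2 (adjusted p = 0.198 and 0.267) or without KO replicate 2, where its log2 fold change was 0.78 (adjusted p = 0.0957). Over all alternatives its adjusted p ran from 8.49e-16 to 0.267.

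**Figure D5:**
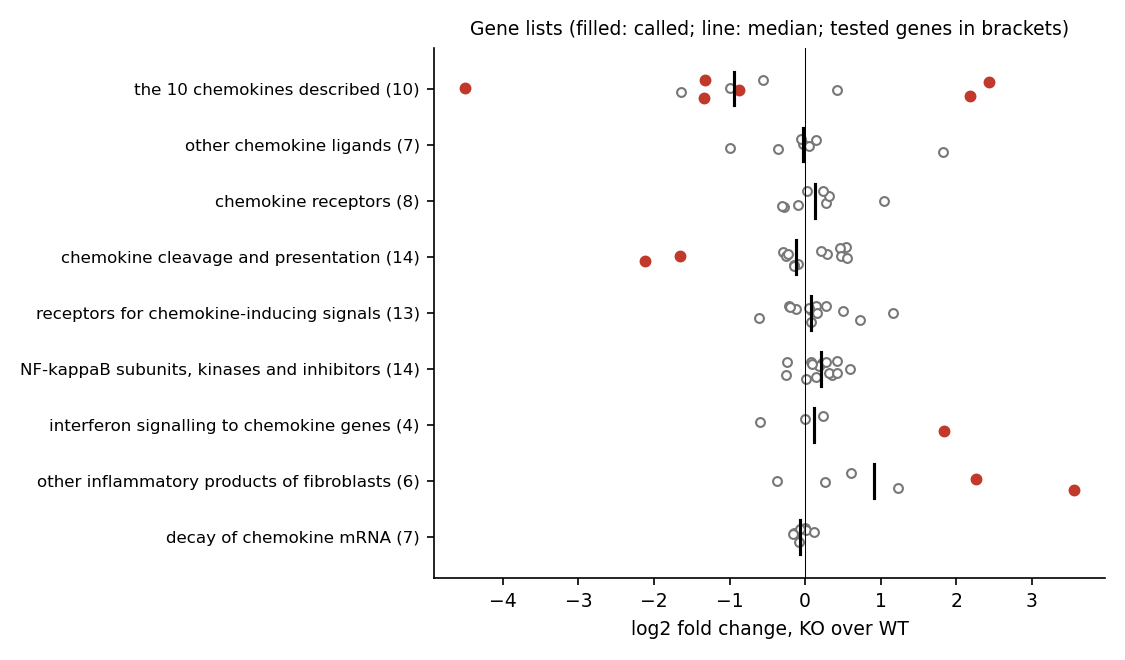
Log2 fold change (KO over WT) of the tested genes of each list, with the number tested in brackets, called genes filled and the list's median as a line. The 10 chemokines reach from −4.50 to 2.44, and no gene of the NF-kappaB list is filled.

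The transcripts whose pattern over the 4 libraries was most like that of *Cxcl1* were low in both KO libraries too, with log2 fold changes from −5.33 to −3.63. By Euclidean distance between log2 CPM centred on each transcript's mean, among 10167 transcripts with a mean of at least 50 counts, these were the peptidase gene *Naalad2* (distance 0.338), the prostacyclin synthase gene *Ptgis* (0.619), *Tmem35a* (0.739), the carboxylesterase gene *Ces1g* (0.932) and the cathepsin gene *Ctsh* (1.07). *Naalad2* had 31.9 and 27.4 CPM in WT and 0.920 and 1.09 CPM in KO. The likeness rests on 4 libraries and follows mainly the difference between genotypes.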

How the data were processed

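RNA was sequenced in 4 libraries, and the deposited files hold raw counts. The authors removed adapters with cutadapt, mapped reads to NCBI37/mm9 by TopHat2 (2.0.9) and ran htseq-count on those of mapping quality over 20 for RefSeq transcripts, each of the 32757 IDs as a feature of its own. The sources used here do not state how strand was handled, and how reads of close relatives such as *Cxcl1*, *Cxcl2* and *Cxcl3* were shared cannot be told from the files. Reads in no feature were 49.9% to 56.5% of all reads and ambiguous reads 12.1% to 13.4%, and both stayed out of library sizes. Replicates differed by more than counting noise (chi-square per degree of freedom 29.3 in WT and 50.7 in KO).

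Symbols came from RefSeq genes of GRCm38.p6 (32308 IDs matched, names only), positions from GENCODE on NCBIM37, the build of the mapping, and promoter sequences from RefSeq on GRCm38.p6. A transcript entered the test if either genotype had 1 CPM or more in each replicate, using edgeR 4.0.16 in R 4.3.3 (TMM factors, quasi-likelihood F-tests, threshold 0.05 after Benjamini-Hochberg adjustment). The passage fit had genotype as a block. The replicate number is the passage (1 for 34 and 2 for 42 in both genotypes), so the replicate block is a passage block. Deviations of same-numbered libraries from their genotype means correlated at 0.175 across transcripts. No source says that same-numbered libraries were cultured or prepared together. Differences within a passage or genotype are log2 CPM with a prior count of 2, and ratios have exact binomial 95% intervals. For any value taken alone, exact permutation of 2 against 2 libraries cannot go below a two-sided p of 0.333. The fit was checked on simulated counts with the spread fitted to these data. There it called 31.9% of 2-fold and 92.1% of 4-fold changes, and 6.15% of its calls were false. A gene that did not pass may therefore still differ by 2-fold.

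The members, lists and tests were chosen with earlier results of these data known. Named are the 10 members, in each list the called genes or else the 2 with the smallest p, and the 5 patterns nearest to the called member with the smallest p. *Thy1*, *Dcn*, *Csf1r*, *Ptprc*, *Sdc1*, *Tlr3* and neighbours of members were named after their values were seen. Alternatives were DESeq2 1.42.0, the exact and the likelihood ratio test of edgeR, RLE size factors, library totals, 2 other filters, counts summed per symbol, a prior count of 0.5, a replicate (passage) block, no genotype block and each library left out. Tables were made in Python 3.11.15 (scipy 1.17.1, pandas 2.3.3, numpy 2.4.6) and plots with matplotlib 3.10.9.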

Additional observations from a re-analysis of the deposited data

Results flagged for a closer look

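From passage 34 to passage 42, 4 of the 10 chemokines moved in opposite directions in the 2 genotypes, each on 1 library per passage, and these differences were not tested. The log2 CPM difference of *Cxcl16* was −0.79 in WT and 0.58 in KO. That of *Cxcl12* was −0.17 in WT and 0.30 in KO, that of *Cxcl5* −0.12 and 0.34, and that of *Ccl7* −0.077 and 0.13.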

How the results depend on the processing

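In KO against WT every alternative kept the direction of all 10 chemokines. *Cxcl1*, *Cxcl5* and *Cxcl10* were called in each of them. The number called was 6, and 6 to 9 under the alternatives that kept all libraries. With a library left out it was 3 (without WT replicate 2) to 8. All transcripts called numbered 381, but 638 with the likelihood ratio test, 612 with the exact test and 740 where low counts were not filtered, and 109 to 1291 with a library left out. With the replicate block, that is with passage as a term, the transcripts called came to 1092, the chemokines called 9 of 10 (all but *Ccl2*; *Cxcl12* had adjusted p = 0.0300), 1 gene was called among other ligands (*Ppbp*), 1 among receptors for chemokine-inducing signals (*Il17ra*) and 3 in cleavage and presentation (*Sdc1* besides *Mmp2* and *Mmp9*). With no filter, *Ppbp* and *Tlr3* were called, 1 in each of the first 2 lists. Inflammatory products had 1 call when 1 CPM was required in all libraries. In this list the low-count gene *Csf3* entered the fit under 2 settings only. With no filter its log2 difference was 1.30 and was not called, and without KO replicate 2 it was 1.80 and was called. With a library left out, calls ran from 1 to 2 in cleavage and presentation (*Mmp2* lost without WT replicate 1 and *Mmp9* without WT replicate 2), 0 to 1 in interferon signalling, 0 to 1 among other ligands and 0 to 1 among receptors for chemokine-inducing signals. A lone library is there assumed to vary like the other genotype.

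Between passages, all transcripts called numbered 320, but 48 with DESeq2, 189 with the likelihood ratio test, 145 with 1 CPM in all libraries and 0 without the genotype block. The chemokines called were 0 with DESeq2, 0 with 1 CPM in all libraries and 0 without the block, where 0 transcripts passed edgeR's test and *Ccl7* turned from 0.03 to −0.0021. The causes were not tested. Without a library this fit has no residual degrees of freedom and gives the values of the other genotype.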
